A study of Mus musculus with 12 samples.

Results

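Interferon-stimulated genes and cytosolic RNA sensors were followed gene by gene in mouse hearts lacking the RNA helicase DDX5 in cardiomyocytes. A list of 36 gene symbols defined the set, and every row of the count tables bearing one of those symbols was taken. Of the 36, 34 had a row in both tables, which held 17260 genes for the constitutive deletion and 17325 for the induced deletion, with 16673 in common. All 34 passed the filter on low counts. Mx1 and Mx2 were not analysed here.

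RNA was sequenced from the left ventricle of male mice in 12 libraries, 3 in each of 4 groups. The constitutive knockout (mCKO, DDX5fl/fl MYH6Cre+) was 8 weeks old and untreated, and its controls (CTR1, Ddx5flox/flox without Cre) were of the same age and untreated. The induced knockout (iCKO, Ddx5flox/flox Myh6MerCreMer) received tamoxifen into the peritoneum at 20 mg/kg/day for 5 days, as did its controls (CTR2, Ddx5flox/flox without Cre). The age of the iCKO and CTR2 mice is not given in the sources used here, and the design text speaks of 7 days of tamoxifen without naming the day the count starts. All 4 groups carry floxed Ddx5 alleles. The Myh6 promoter that drives both recombinases is active in cardiomyocytes, so Ddx5 is left in the other cells of the ventricle. Neither control group carries a recombinase, so an effect of Cre or MerCreMer itself cannot be told apart from that of the deletion. The labels do not say that replicates are separate animals, so p-values measure the spread between these libraries, which may be technical.

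Type I interferons are secreted after cells detect foreign or misplaced nucleic acid, and they signal through a receptor pair and the JAK kinases to transcription factors that include STAT2 and IRF9. A complex of these factors binds the interferon-stimulated response element in promoters and switches on genes that sense RNA, block translation, degrade RNA or tag proteins. RNA helicases of the DEAD-box family and the RIG-I sensors are related proteins, and RNA sensors can also respond to the cell's own RNA. In the heart, interferon-stimulated genes are expressed by cardiomyocytes, endothelial cells, fibroblasts and macrophages.

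RefSeq promoter windows on GRCm38.p6, reaching from 250 bases before to 50 bases after a transcript start, matched 27 of the 36 genes. The response element core, GAAA and a further GAAA with 2 bases of any kind between them, searched on both strands, occurred in 16 of the 27 (59.3%), beside 3.99% of the 27025 genes with a window. The gamma-activated site TTCNNNGAA, an element of the response to interferon gamma, occurred in 7 of the 27 (25.9%), beside 9.55% of all genes with a window. The 2 motifs were counted separately, and matches of one that overlap the other were kept. A match describes letters in a window and says nothing of binding. Stretches upstream of 6 genes are shown because 4 of the genes (Isg15, Ifit1, Bst2 and Oas3) were called higher in iCKO and 2 (Igtp and Rsad2) were called in neither knockout, although each stretch holds the same core. Each is written 5′ to 3′ on the strand of its gene, lies outside annotated genes in GENCODE M21, and has in capitals the core or its reverse complement, TTTC and TTTC with 2 bases between them.
Isg15, chr4:156200855-156200916, minus strand: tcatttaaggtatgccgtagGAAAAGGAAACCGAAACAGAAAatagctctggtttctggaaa
Ifit1, chr19:34640765-34640833, plus strand: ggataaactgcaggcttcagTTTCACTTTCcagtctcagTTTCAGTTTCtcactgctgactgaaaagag
Bst2, chr8:71537567-71537622, minus strand: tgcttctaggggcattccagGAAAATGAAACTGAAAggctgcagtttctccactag
Oas3, chr5:120777705-120777754, minus strand: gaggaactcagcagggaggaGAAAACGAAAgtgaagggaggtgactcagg
Igtp, chr11:58199502-58199551, plus strand: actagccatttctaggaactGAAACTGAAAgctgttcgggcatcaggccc
Rsad2, chr12:26456543-26456592, minus strand: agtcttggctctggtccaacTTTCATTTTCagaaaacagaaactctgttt
Isg15 carried 3 overlapping cores between 78 and 57 bases upstream of its transcript start. Ifit1 carried 2 separate cores between 104 and 76 bases upstream, and Bst2 carried 2 overlapping cores between 130 and 115 bases upstream. Oas3, Igtp and Rsad2 each carried 1. Among the genes called higher in iCKO, 8 of the 12 with a window held the core. Among those called higher in mCKO with the replicate number as a block 5 of 12 did, and among the genes called in neither knockout 6 of 9 did.

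Levels are CPM, the counts of a gene scaled to a common library size, on library sizes scaled by the trimmed mean of M-values (TMM) within each table. The value after ± of a log2 fold change is an approximate standard error. It is the size of the log2 fold change divided by the square root of the F statistic of its edgeR test. A gene is called at a Benjamini-Hochberg adjusted p below 0.05 over all genes tested by edgeR. Library totals lay between 19682268 and 25871882 counts. Ddx5, the deleted gene, had 636.0, 635.5 and 396.3 CPM in CTR1, 232.9, 231.7 and 217.7 in mCKO, 566.0, 696.5 and 596.3 in CTR2, and 216.3, 218.9 and 192.1 in iCKO. Every knockout library was below every control library. Ddx5 fell by 1.57 on the log2 scale in iCKO (edgeR adjusted p = 0.000172) and by 1.26 in mCKO with the replicate number as a block (0.00192; 0.17 without it). Libraries 3 of CTR1 and of mCKO stood apart from libraries 1 and 2 of their groups. In CTR1 library 3, 29 of the 34 interferon-stimulated genes lay below the mean of the other libraries of that group, with a median log2 deviation of -0.59, and in mCKO library 3 it was 33 of 34 with a median of -1.002. Library 3 of iCKO had 33 of 34 below and a median of -0.92, and library 2 of CTR2 had 30 of 34 below and a median of -0.50. Across all genes, library 3 of mCKO and library 3 of CTR1 left their group means in the same direction (Pearson correlation 0.823). Libraries 1 and 2 agreed across the groups whatever their number (0.464 to 0.553), so the values do not show that their numbers pair them. Results for mCKO are therefore given without and with the replicate number as a block, called the unblocked and the blocked fit.

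**Figure D1:**
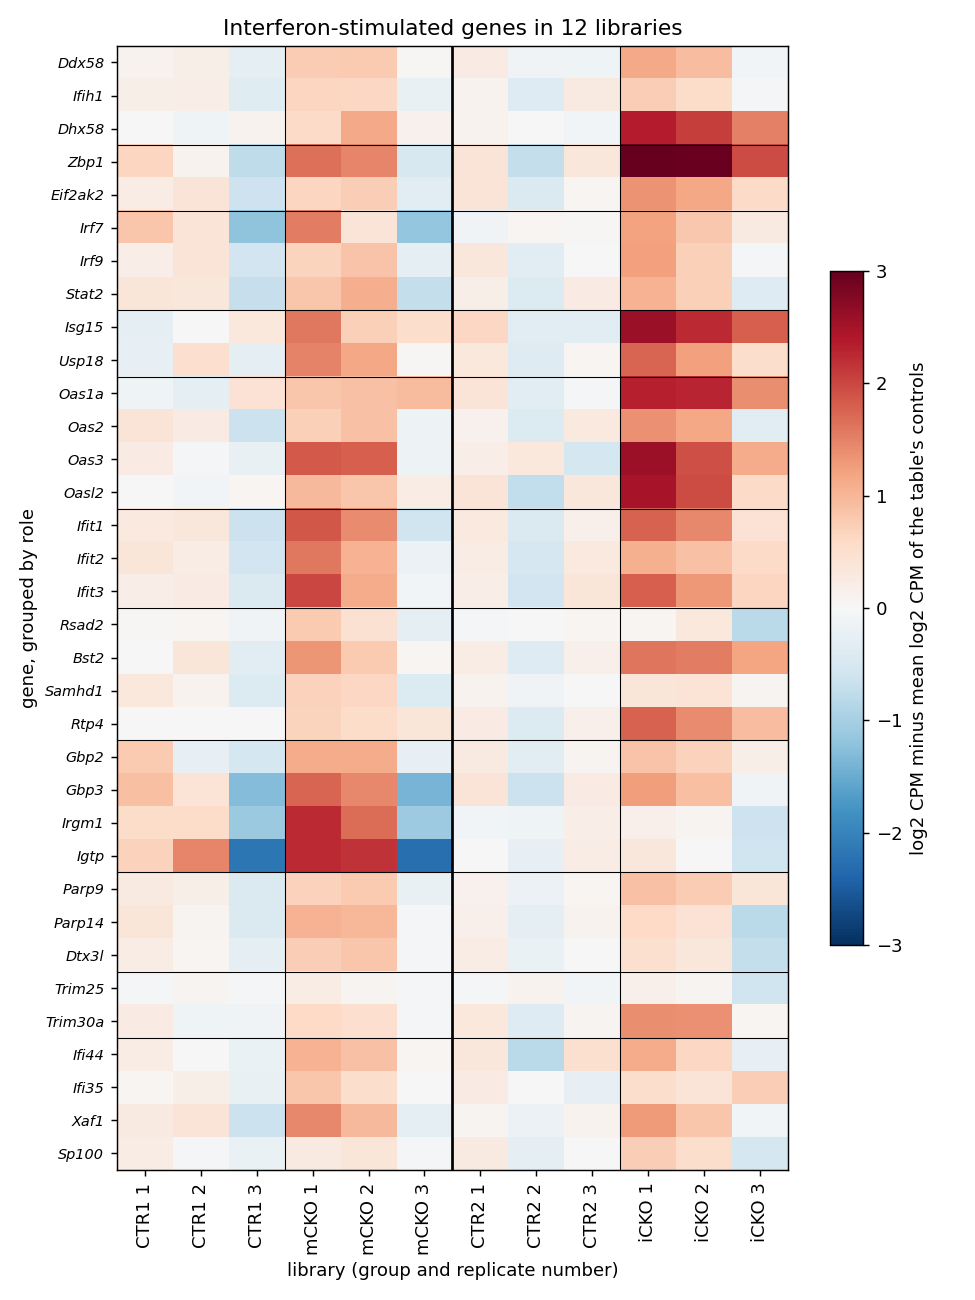
Heat map of the 34 genes (vertical axis, grouped by role, lines between roles) in the 12 libraries (horizontal axis, group and replicate number). Colour is the log2 CPM of a library minus the mean log2 CPM of the controls in the same table, from -3 (blue) to 3 (red). Library 3 is the palest or bluest of its group for most genes in CTR1, mCKO and iCKO, and Zbp1 is the darkest in iCKO.

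In the constitutive deletion all 34 genes had a positive log2 fold change, from 0.10 for Trim25 to 1.38 for Oas3, with a median of 0.67 beside 0.01 over all genes. In the unblocked edgeR fit 0 of the 34 were called, as was 0% of all 13353 genes tested, limma-voom also called 0, and 8 of the 34 had an unadjusted p below 0.05, as did 1164 of all genes. DESeq2 called 2 of them, Oas1a and Rtp4, among 310 genes. In the blocked fit 17 of the 34 were called higher and 0 lower, where the background was 7.32% of all genes called higher, 6.45% called lower and 13.8% called in either direction. The median in that fit was 0.64. The groups did not overlap for 5 genes (Isg15, Oas1a, Oasl2, Dhx58 and Rtp4), each higher in every mCKO library, where 7.69% of all genes had mCKO entirely above CTR1 and 7.29% entirely below. With both libraries numbered 3 left out and no block, 25 were called higher, among them the 17 of the blocked fit, where 3.85% of all genes were called higher. Leaving out replicate number 1, 2 or 3 of both groups from the blocked fit, an alternative chosen after seeing the data, gave 15, 7 and 17 higher calls, where 5.69%, 4.79% and 1.63% of all genes were called higher. Ddx58, Irf9, Oas1a and Xaf1 were called in each of these fits, and Oas3 and Ifih1 in none.

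In the induced deletion 17 of the 34 were called higher and 0 lower, where 25.2% of all genes were called higher, 19.5% lower and 44.8% in either direction. Of the 34, 30 had a positive log2 fold change, and the median was 0.75 beside 0.03 over all 13548 genes. The 4 negative values belonged to Rsad2, Irgm1, Igtp and Trim25, none was called, and all 4 turned positive when libraries were scaled by their totals only. For 16 genes every iCKO library lay above every CTR2 library, where 31.9% of all genes did so and 27% lay entirely below. The count of 17 fell to 10 without CTR2 library 2 and to 11 without iCKO library 2, and was 27 without iCKO library 3. In those fits 22.2%, 19.9% and 25.7% of all genes were called higher.

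In the comparison gene by gene, 9 genes were called higher in both knockouts (Eif2ak2, Ifi35, Ifit2, Oas1a, Oas3, Oasl2, Parp9, Rtp4 and Zbp1), which is 52.9% of the mCKO list of the blocked fit and 52.9% of the iCKO list. In those fits 7.32% and 25.2% of all genes were called higher. The share of all genes called in both, or in 1 only, was not computed, so these counts have no background beside them. A further 8 were called in mCKO with the block and not in iCKO (Ddx58, Dtx3l, Ifi44, Ifih1, Irf9, Oas2, Parp14 and Xaf1), and 8 were called in iCKO and not in mCKO (Bst2, Dhx58, Ifit1, Ifit3, Irf7, Isg15, Trim30a and Usp18). Being called in 1 knockout only does not show a difference between them. The test of that difference, the mCKO log2 fold change minus the iCKO log2 fold change in 1 fit of all 12 libraries, called 1 of the 34, Dhx58, where 9.88% of all genes were called lower, 11% higher and 20.8% in either direction. With the block it called Dhx58, Zbp1 and Oas1a, all lower, where 13.3% of all genes were called lower, 14.8% higher and 28.1% in either direction. The median difference over the 34 genes was -0.09 without and -0.14 with the block.

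**Figure D2:**
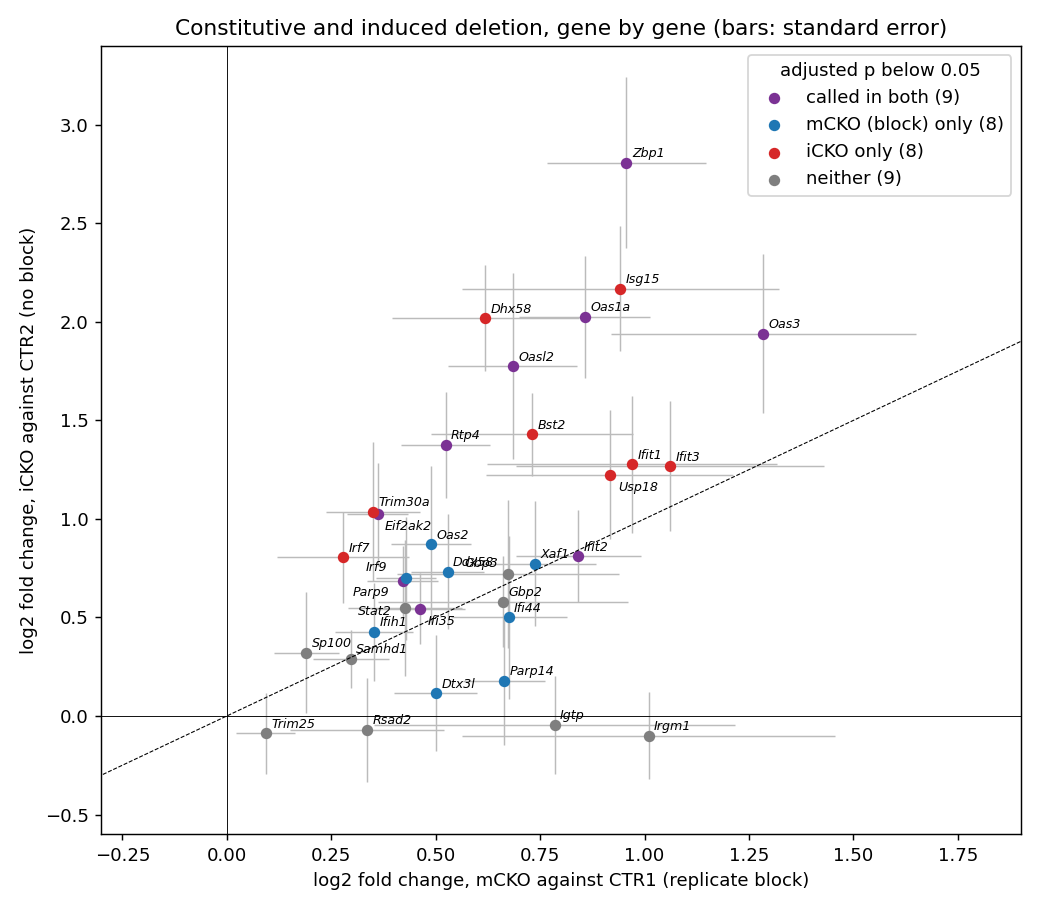
Log2 fold change of each of the 34 genes in mCKO against CTR1 in the blocked fit (horizontal axis) and in iCKO against CTR2 (vertical axis), with bars for the standard error and colours for the calls. The dashed line marks equal values. Zbp1, Isg15, Oas1a and Dhx58 lie far above it, and Igtp, Irgm1, Parp14 and Dtx3l lie below it.

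The RIG-I family of cytosolic RNA sensors comprises Ddx58, which encodes RIG-I and binds RNA ends with phosphates, Ifih1, which encodes MDA5 and binds long duplex RNA, and Dhx58, which encodes LGP2 and lacks the signalling domains of the other two. Dhx58 (GRCm38 chr11:100694884-100704271) had 3.42, 3.13 and 3.66 CPM in CTR1 libraries 1, 2 and 3 and 5.08, 7.49 and 3.69 in mCKO. It had 2.02, 1.88 and 1.78 CPM in CTR2 and 9.75, 7.96 and 5.40 in iCKO. All iCKO libraries lay above all controls, and so did those of mCKO, of which library 3 was only just above. Dhx58 rose in iCKO by a log2 fold change of 2.02 ± 0.27 (edgeR adjusted p = 0.000666), and its value in mCKO was 0.67 ± 0.28 (0.578), or 0.62 ± 0.22 in the blocked fit (0.0973). The difference between the knockouts was -1.31 ± 0.39 (edgeR adjusted p = 0.0326), or -1.34 ± 0.36 with the block (0.0258). The call of the difference was lost without CTR1 library 1 (edgeR adjusted p = 0.0588) or 3 (0.058), mCKO library 1 (0.0736), CTR2 library 1 (0.0551), 2 (0.0556) or 3 (0.0697), or iCKO library 1 (0.0626) or 2 (0.0614).

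Ddx58 had 26.9, 28.2 and 20.7 CPM in CTR1 and 42.2, 43.5 and 25.5 in mCKO. In CTR2 it had 17.7, 13.8 and 13.8 CPM and in iCKO 32.7, 28.3 and 14.2. Each mCKO library was above the CTR1 library of its number, while mCKO library 3 was below CTR1 libraries 1 and 2, and iCKO library 3 sat among the controls. Ddx58 rose in mCKO in the blocked fit by 0.53 ± 0.09 (edgeR adjusted p = 0.00334; 0.578 unblocked), and in iCKO the value was 0.73 ± 0.29 (0.0712). Ifih1 had 22.0, 22.4 and 15.1 CPM in CTR1, 30.5, 29.8 and 16.8 in mCKO, 12.6, 9.04 and 14.2 in CTR2, and 19.6, 17.2 and 11.4 in iCKO. Its libraries showed the same layout, with mCKO and iCKO library 3 inside the range of the controls. Ifih1 rose by 0.35 ± 0.09 in the blocked fit of mCKO (edgeR adjusted p = 0.0285; 0.835 unblocked), a call lost without number 1 (0.116), 2 (0.145) or 3 (0.0683), and its value in iCKO was 0.43 ± 0.25 (0.195). For neither Ddx58 (-0.13 ± 0.39) nor Ifih1 (-0.01 ± 0.38) was the difference between knockouts called.

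Of the other nucleic acid sensors, Zbp1 recognises nucleic acid in the left-handed Z form and can start cell death, and Eif2ak2 encodes PKR, which is activated by duplex RNA and restrains translation. Zbp1 (GRCm38 chr2:173206612-173218923) had 5.67, 3.86 and 2.13 CPM in CTR1 and 11.3, 9.95 and 2.60 in mCKO. It had 1.82, 0.847 and 1.78 CPM in CTR2 and 14.9, 10.9 and 5.40 in iCKO. The iCKO libraries all lay above the controls, whereas mCKO library 3 lay below 2 of the 3 controls. Zbp1 had the largest fold change of the 34 in iCKO, 2.81 ± 0.43 on the log2 scale (edgeR adjusted p = 0.00131), and its iCKO mean was 7.00 times the CTR2 mean. In mCKO it was 1.03 ± 0.59 (edgeR adjusted p = 0.75), and it rose in the blocked fit by 0.96 ± 0.19 (0.00863). The difference between knockouts was -1.73 ± 0.78 (edgeR adjusted p = 0.136) without and -1.78 ± 0.49 (0.0268) with the block. Eif2ak2 had 32.5, 35.97 and 18.0 CPM in CTR1, 43.2, 46.1 and 22.3 in mCKO, 24.5, 13.8 and 19.7 in CTR2, and 47.5, 42.3 and 28.03 in iCKO. The induced groups did not overlap, and mCKO exceeded CTR1 within each number only. Eif2ak2 rose by 1.02 ± 0.26 in iCKO (edgeR adjusted p = 0.013) and by 0.36 ± 0.07 in the blocked fit of mCKO (0.00926; 0.91 unblocked). The blocked mCKO call was lost without number 2 for Zbp1 (edgeR adjusted p = 0.0608) and without number 2 (0.0605) or 3 (0.0702) for Eif2ak2.

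**Figure D3:**
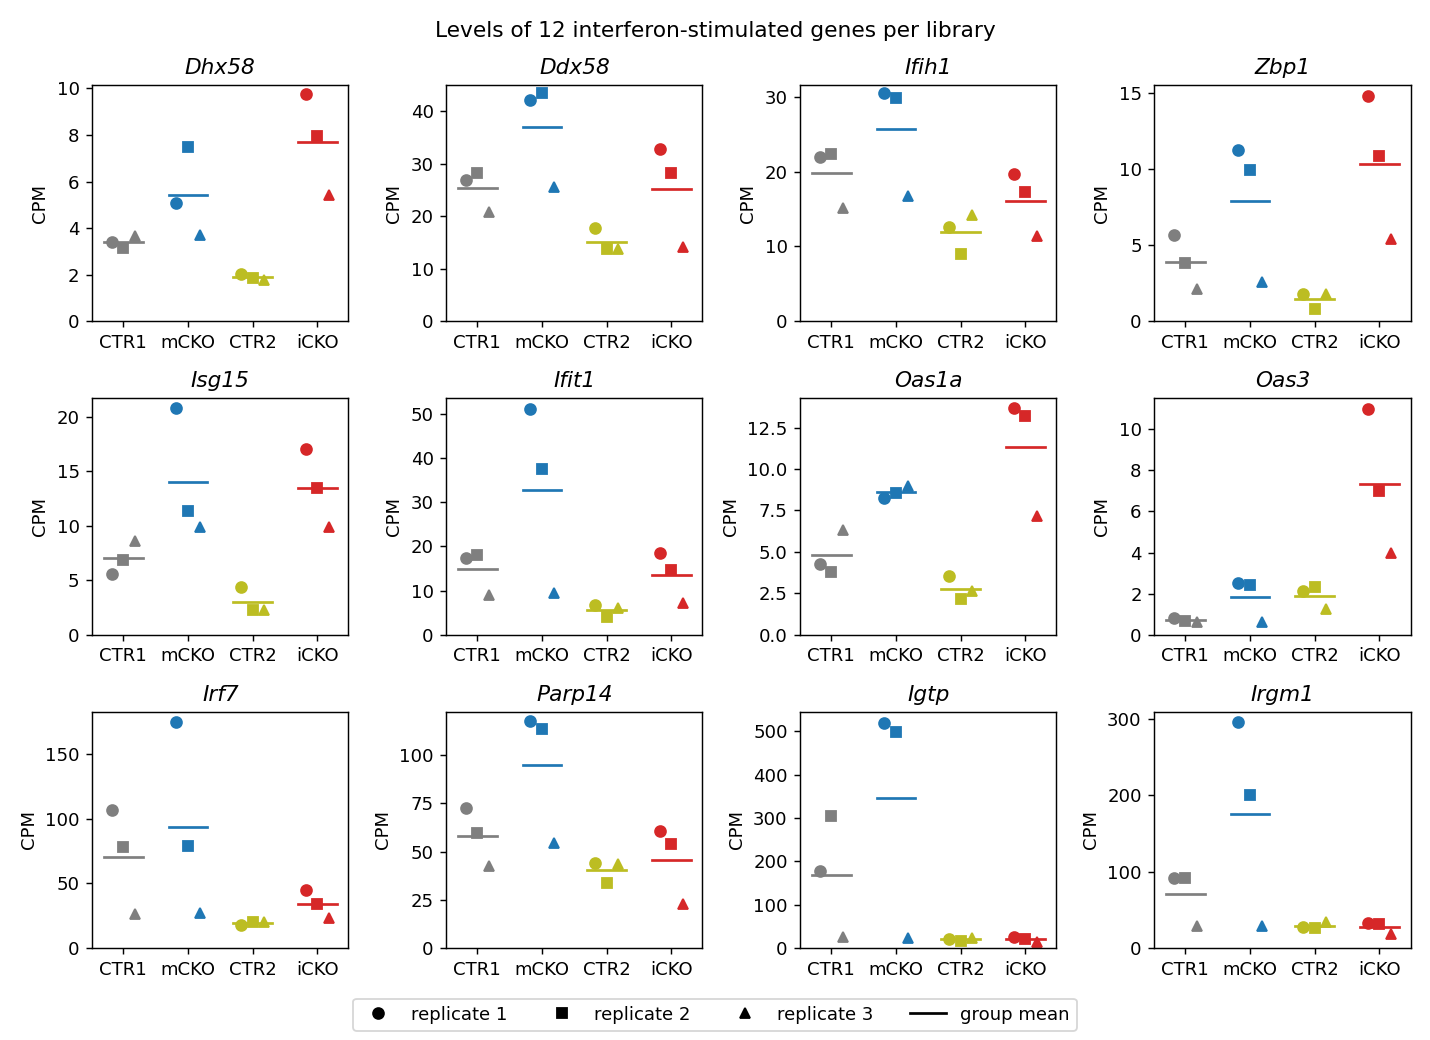
CPM (vertical axis, linear, from 0) of 12 of the genes in each library by group (horizontal axis), with a marker shape for the replicate number and a line for the group mean of 3 libraries. Triangles, which mark library 3, are lowest in the mCKO group for 11 of the 12 genes, all but Oas1a. For Igtp and Irgm1 the CTR2 and iCKO libraries sit together near the level of CTR1 library 3.

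Transcription factors of the response were Irf7, the IRF that amplifies interferon production, and Irf9 and Stat2, which belong to the complex that binds the response element. Irf7 had 107.0, 78.4 and 26.3 CPM in CTR1, 175.3, 79.3 and 27.2 in mCKO, 18.2, 20.4 and 20.0 in CTR2, and 44.8, 34.1 and 23.6 in iCKO. The spread within CTR1 and within mCKO exceeded the gap between their means, whereas the iCKO libraries all lay above CTR2. Irf7 rose in iCKO by 0.80 ± 0.23 (edgeR adjusted p = 0.0207), a call lost on leaving out any library but iCKO 3 (adjusted p = 0.0516 to 0.0758), and in mCKO it was 0.41 ± 0.73 (0.976; 0.28 ± 0.16 and 0.33 blocked). Irf9 had 36.9, 42.0 and 21.6 CPM in CTR1, 51.3, 58.6 and 26.9 in mCKO, 21.1, 13.3 and 16.9 in CTR2, and 39.5, 27.4 and 16.4 in iCKO. Both pairs of groups overlapped through library 3 of the knockout. Irf9 rose in the blocked fit of mCKO by 0.43 ± 0.07 (edgeR adjusted p = 0.00359; 0.873 unblocked), and its value in iCKO was 0.70 ± 0.31 (0.101). Stat2 was not called in either knockout with all libraries, with 0.43 ± 0.14 in the blocked fit of mCKO (edgeR adjusted p = 0.0986) and 0.55 ± 0.34 in iCKO (0.224). It was called higher in mCKO without both libraries numbered 3 and in the blocked fit without number 3. In iCKO it was called without iCKO library 3.

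Isg15 encodes a ubiquitin-like protein that is attached to other proteins, and Usp18 encodes the protease that removes it and also dampens the interferon receptor. Isg15, whose promoter holds 3 overlapping response element cores, had 5.62, 6.84 and 8.62 CPM in CTR1, 20.8, 11.4 and 9.90 in mCKO, 4.40, 2.31 and 2.29 in CTR2, and 17.1, 13.5 and 9.91 in iCKO. It was above all controls in every knockout library of both models, and unlike most of the set it was not low in CTR1 library 3. Isg15 rose in iCKO by 2.17 ± 0.32 (edgeR adjusted p = 0.00104), and in mCKO it was 0.9975 ± 0.32 (0.433; 0.94 ± 0.38 and 0.222 blocked). The difference between knockouts, -1.13 ± 0.47, was not called (edgeR adjusted p = 0.11; 0.0569 with the block). Usp18 had 6.80, 11.4 and 6.67 CPM in CTR1, 22.5, 18.1 and 8.27 in mCKO, 5.21, 3.20 and 4.33 in CTR2, and 14.0, 9.72 and 6.04 in iCKO. It rose in iCKO by 1.23 ± 0.33 (edgeR adjusted p = 0.0163), a call lost without CTR2 library 2 (0.0594) or 3 (0.0519). With all libraries Usp18 was not called in mCKO (0.92 ± 0.30, edgeR adjusted p = 0.129 blocked). It was called higher there without both libraries numbered 3, and in the blocked fit without number 1.

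The OAS family makes oligoadenylates from duplex RNA, which activate the ribonuclease RNase L, and Oasl2 is a relative of these enzymes. All 4 measured members rose in the blocked fit of mCKO, where 7.32% of all genes were called higher, and 3 of 4 rose in iCKO, where 25.2% were. Oas1a had 4.25, 3.81 and 6.30 CPM in CTR1, 8.28, 8.54 and 8.98 in mCKO, 3.54, 2.17 and 2.65 in CTR2, and 13.7, 13.2 and 7.16 in iCKO. Neither pair of groups overlapped, and the 3 mCKO libraries lay close together, with a mean of 8.60 and an SD of 0.355 CPM. Oas1a rose by 0.86 ± 0.16 in the blocked fit of mCKO (edgeR adjusted p = 0.0055; 0.299 unblocked) and by 2.03 ± 0.31 in iCKO (0.00124). The difference was -1.14 ± 0.38 (edgeR adjusted p = 0.0533) without and -1.09 ± 0.33 (0.0368) with the block. Oas1a has close copies such as Oas1g, between which counting can divide reads, so its level is uncertain to that extent. Oas2 had 21.3, 19.4 and 10.5 CPM in CTR1, 26.9, 30.2 and 14.7 in mCKO, 13.9, 9.56 and 15.7 in CTR2, and 33.0, 28.6 and 10.1 in iCKO. It rose in the blocked fit of mCKO by 0.49 ± 0.10 (edgeR adjusted p = 0.00739; 0.834 unblocked), and in iCKO, where library 3 was below 2 of the 3 controls, it was 0.87 ± 0.40 (0.108). Its blocked mCKO call was lost without number 2 (edgeR adjusted p = 0.0622) or 3 (0.0817).

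Oas3 was the least abundant of the 34 per kilobase of exon in all 4 groups, with 0.831, 0.679 and 0.602 CPM in CTR1, 2.50, 2.41 and 0.630 in mCKO, 2.12, 2.31 and 1.27 in CTR2, and 10.99, 7.01 and 3.99 in iCKO. All of these values were above the level that 3 counts give. Oas3 rose by 1.94 ± 0.40 in iCKO (edgeR adjusted p = 0.0052) and by 1.28 ± 0.36 in the blocked fit of mCKO (0.0392; 0.553 unblocked). Oasl2 had 17.9, 16.8 and 18.3 CPM in CTR1, 34.6, 31.6 and 20.7 in mCKO, 11.5, 5.27 and 11.2 in CTR2, and 48.7, 34.1 and 13.1 in iCKO. Both knockouts lay entirely above their controls, with library 3 nearest to them. It rose by 1.78 ± 0.47 in iCKO (edgeR adjusted p = 0.0158; 0.0555 without CTR2 library 2) and by 0.68 ± 0.15 in the blocked fit of mCKO (0.0301; 0.344 unblocked). The blocked mCKO call was lost for Oas3 without number 1 (edgeR adjusted p = 0.142), 2 (0.225) or 3 (0.0605), and for Oasl2 without number 1 (0.116) or 2 (0.0895).

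The IFIT proteins bind foreign 5′ RNA ends and hold back translation. All 3 members rose in iCKO, where 25.2% of all genes were called higher, and Ifit2 also in the blocked fit of mCKO, where 7.32% were. Ifit1 had 17.5, 18.1 and 9.03 CPM in CTR1, 51.2, 37.6 and 9.36 in mCKO, 6.63, 4.001 and 6.06 in CTR2, and 18.5, 14.7 and 7.31 in iCKO. Ifit3 had 21.6, 22.1 and 13.8 CPM in CTR1, 75.7, 40.5 and 17.8 in mCKO, 8.19, 4.85 and 9.27 in CTR2, and 24.8, 17.6 and 11.3 in iCKO. For both genes mCKO libraries 1 and 2 were the highest of all 12 and mCKO library 3 was inside the range of CTR1. Ifit1 rose in iCKO by 1.28 ± 0.35 (edgeR adjusted p = 0.0173), lost without CTR2 library 2 (0.0634) or iCKO library 2 (0.0525), and Ifit3 by 1.27 ± 0.33 (0.0145). In the blocked fit of mCKO neither was called, at 0.97 ± 0.35 for Ifit1 (edgeR adjusted p = 0.208) and 1.06 ± 0.37 for Ifit3 (0.219). Ifit2 had 27.7, 25.01 and 14.5 CPM in CTR1, 64.7, 44.4 and 19.0 in mCKO, 18.5, 11.3 and 19.4 in CTR2, and 33.3, 29.3 and 23.9 in iCKO. It rose by 0.84 ± 0.15 in the blocked fit of mCKO (edgeR adjusted p = 0.0156; 0.667 unblocked) and by 0.81 ± 0.23 in iCKO (0.021), the latter lost without iCKO library 1 (0.0588) or 2 (0.059) and the former without number 2 (0.0567). Reads of Ifit3 and its near copy Ifit3b, and of Ifit1 and related genes, may have been divided by the authors' counting.

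Among antiviral effectors, Bst2 encodes tetherin, which holds budding virus at the cell surface, Rtp4 is a chaperone of receptors that is induced by interferon, Samhd1 hydrolyses deoxynucleotides, and Rsad2 encodes viperin. Bst2 had 39.4, 50.5 and 31.0 CPM in CTR1, 99.0, 68.5 and 41.0 in mCKO, 11.6, 7.58 and 11.1 in CTR2, and 30.4, 28.6 and 22.6 in iCKO. It rose in iCKO by 1.43 ± 0.21 (edgeR adjusted p = 0.00106), and in mCKO it was 0.79 ± 0.34 (0.583; 0.73 ± 0.24 and 0.174 blocked). Rtp4 had 11.7, 11.8 and 11.9 CPM in CTR1, the narrowest CTR1 spread of the set, and 18.6, 17.2 and 15.2 in mCKO. In CTR2 it had 6.47, 4.05 and 6.06 CPM and in iCKO 18.4, 14.4 and 10.3. Neither pair of groups overlapped. Rtp4 rose by 1.38 ± 0.27 in iCKO (edgeR adjusted p = 0.00391) and by 0.52 ± 0.11 in the blocked fit of mCKO (0.00894). Its unblocked adjusted p in mCKO, 0.248 by edgeR, was the lowest of the 34, and the blocked call was lost without number 3 (0.0628). Samhd1 (0.29 ± 0.15, edgeR adjusted p = 0.14) and Rsad2 (-0.07 ± 0.26, 0.848) were not called in iCKO, nor in mCKO in either fit, with all libraries and TMM scaling. Both were called higher in mCKO without both libraries numbered 3 and in the blocked fit without number 3. Samhd1 was also called in iCKO without iCKO library 3. With library sizes only it was called in iCKO and in the blocked fit of mCKO. Rsad2, with a response element core in its promoter stretch, had 19.0, 20.0 and 20.8 CPM in CTR2 and 20.8, 24.8 and 11.4 in iCKO.

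The interferon-induced GTPases Gbp2, Gbp3, Irgm1 and Igtp act at membranes around intracellular pathogens and respond strongly to interferon gamma. None of the 4 was called in either knockout or in the difference between them in the edgeR fits with all libraries and TMM scaling. With library sizes only, Gbp2 was called higher in iCKO, where 33.9% of all genes were. Without both libraries numbered 3, Irgm1 was called higher in mCKO and in the difference, and in the blocked fit without number 3 Gbp3 and Irgm1 were. Irgm1 was also called in the difference without mCKO library 3, and Gbp2 and Gbp3 in iCKO without iCKO library 3. Igtp had 178.1, 305.8 and 24.5 CPM in CTR1 and 520.5, 497.6 and 23.1 in mCKO. In CTR2 it had 20.3, 17.2 and 23.8 CPM and in iCKO 25.7, 20.5 and 13.3. The mean of libraries 1 and 2 was 9.87 times library 3 in CTR1 and 22.1 times in mCKO, the largest such ratios among the 34, and library 3 of both groups was at the level of CTR2 and iCKO. Igtp was 1.03 ± 1.19 in mCKO (edgeR adjusted p = 0.94; 0.78 ± 0.43 and 0.403 blocked) and -0.04 ± 0.25 in iCKO (0.898). Irgm1 had 91.8, 91.6 and 28.8 CPM in CTR1, 295.4, 200.2 and 29.5 in mCKO, 27.6, 26.8 and 33.8 in CTR2, and 32.4, 30.9 and 19.0 in iCKO. It showed the same split, at 1.31 ± 0.82 in mCKO (edgeR adjusted p = 0.773; 1.01 ± 0.45 and 0.324 blocked) and -0.10 ± 0.22 in iCKO (0.736). Gbp3 had 118.1 and 96.9 CPM in mCKO libraries 1 and 2 and 13.4 in library 3, beside 66.0, 47.2 and 14.3 in CTR1. In iCKO, Gbp2 was 0.58 ± 0.23 (edgeR adjusted p = 0.0686) and Gbp3 0.72 ± 0.37 (0.149). Igtp shares 8.0% of its exonic length with Irgm2 on the same strand, so reads there cannot be assigned to either gene.

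Parp9 and Dtx3l form a complex that modifies proteins with ADP-ribose and ubiquitin, and Parp14 is a related ADP-ribosyltransferase. All 3 rose in the blocked fit of mCKO, where 7.32% of all genes were called higher, and 1 of 3, Parp9, also in iCKO, where 25.2% were. Parp14 had 72.7, 59.9 and 42.3 CPM in CTR1, 117.9, 113.4 and 54.3 in mCKO, 44.4, 33.6 and 43.5 in CTR2, and 60.9, 53.9 and 22.8 in iCKO. Its iCKO libraries fell on both sides of the controls, with library 3 the lowest of the 6. Parp14 rose by 0.66 ± 0.10 in the blocked fit of mCKO (edgeR adjusted p = 0.00353; 0.637 unblocked) and was 0.18 ± 0.33 in iCKO (0.679). Dtx3l had 33.9, 30.4 and 24.1 CPM in CTR1, 48.3, 51.7 and 27.9 in mCKO, 27.4, 20.3 and 23.3 in CTR2, and 33.0, 29.8 and 14.3 in iCKO. It rose by 0.50 ± 0.10 in the blocked fit of mCKO (edgeR adjusted p = 0.0102; 0.646 unblocked) and was 0.12 ± 0.29 in iCKO (0.767). Parp9 had 37.0, 34.2 and 22.4 CPM in CTR1, 48.9, 52.6 and 26.1 in mCKO, 21.5, 17.2 and 20.3 in CTR2, and 36.3, 33.4 and 25.1 in iCKO. The iCKO libraries all lay above CTR2. It rose by 0.42 ± 0.08 in the blocked fit of mCKO (edgeR adjusted p = 0.0088; 0.815 unblocked) and by 0.68 ± 0.18 in iCKO (0.0161), the latter lost without CTR2 library 2 (0.0541) or 3 (0.0548) or iCKO library 1 (0.0529) or 2 (0.0581). Parp9 and Dtx3l are transcribed in opposite directions and share 458 bases of exon, 9.4% of the exonic length of Parp9. The blocked mCKO call was lost for Parp14 without number 1 (edgeR adjusted p = 0.0517), and without number 2 for Dtx3l (0.0624) and Parp9 (0.0856). The difference between knockouts was called for none of these genes.

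Of the TRIM ubiquitin ligases, Trim25 activates RIG-I and Trim30a is a mouse gene induced by interferon. Trim25 had group means of 66.5, 71.0, 58.0 and 54.6 CPM in CTR1, mCKO, CTR2 and iCKO and was not called. Trim30a had 20.5, 16.0 and 16.1 CPM in CTR1, 26.3, 24.9 and 16.8 in mCKO, 13.9, 8.47 and 11.8 in CTR2, and 29.5, 29.0 and 11.6 in iCKO. Trim30a rose in iCKO by 1.04 ± 0.35 (edgeR adjusted p = 0.0415), with library 3 among the controls. The call was lost on leaving out any library but iCKO 3 (edgeR adjusted p = 0.0616 to 0.131) and in limma-voom (0.0758).

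The remaining genes were Ifi44 and Ifi35, Xaf1, which promotes cell death, and Sp100, a component of nuclear bodies. Ifi44 had 8.75, 7.41 and 6.49 CPM in CTR1, 15.6, 13.7 and 7.85 in mCKO, 5.61, 2.54 and 6.22 in CTR2, and 9.71, 6.83 and 3.76 in iCKO. It rose in the blocked fit of mCKO by 0.67 ± 0.14 (edgeR adjusted p = 0.00974; 0.535 unblocked) and was 0.50 ± 0.41 in iCKO (0.351). Xaf1 had 22.3, 24.2 and 11.8 CPM in CTR1, 50.1, 36.5 and 15.3 in mCKO, 7.79, 6.54 and 8.00 in CTR2, and 18.0, 13.2 and 7.01 in iCKO. It rose in the blocked fit of mCKO by 0.74 ± 0.15 (edgeR adjusted p = 0.0194; 0.745 unblocked) and was 0.77 ± 0.32 in iCKO (0.076). Both genes had library 3 of each knockout inside the range of its controls. Ifi35 had 24.6, 26.5 and 20.3 CPM in CTR1, 42.4, 34.02 and 23.8 in mCKO, 19.8, 16.6 and 14.0 in CTR2, and 24.0, 21.7 and 27.95 in iCKO, where library 3 was the highest. It rose by 0.46 ± 0.11 in the blocked fit of mCKO (edgeR adjusted p = 0.0181; 0.624 unblocked) and by 0.55 ± 0.18 in iCKO (0.0383). The iCKO call was lost on leaving out any library but CTR2 1 (edgeR adjusted p = 0.0533 to 0.158). The blocked mCKO call was lost for Ifi35 without number 1 (edgeR adjusted p = 0.071) or 3 (0.07) and for Ifi44 without number 2 (0.0539). Of the exonic length of Ifi35, 16.8% overlaps an antisense gene, Gm11626, and whether counting used the strand is not given in the sources used here. Sp100 was not called with all libraries and TMM scaling, at 0.19 ± 0.08 in the blocked fit of mCKO (edgeR adjusted p = 0.131) and 0.32 ± 0.31 in iCKO (0.421). It was called higher in the blocked fit of mCKO with library sizes only, and in iCKO without iCKO library 3.

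Per kilobase of exon, the most abundant of the 34 in CTR1 was Igtp at 83.8 ± 69.6 (SD, n = 3) CPM per kb, followed by Bst2 at 44.6 ± 10.9 and Irf7 at 18.7 ± 10.8, and the SD of Igtp reaches down to both. In mCKO the order began with Igtp at 171.7 ± 138.9 CPM per kb and Bst2 at 76.9 ± 32.1. In CTR2, Bst2 at 11.2 ± 2.42, Igtp at 10.1 ± 1.64, Trim25 at 10.1 ± 0.700 and Ifi35 at 9.73 ± 1.69 CPM per kb did not differ beyond their SD. In iCKO, Bst2 at 30.1 ± 4.54 CPM per kb and Isg15 at 17.9 ± 4.75 led, with Ifi35 at 14.2 ± 1.84. Oas3 was lowest in each group, from 0.0996 ± 0.0165 CPM per kb in CTR1 to 1.04 ± 0.497 in iCKO, where Ifi44 at 1.11 ± 0.485 did not differ from it beyond the SD. Levels of the induced and constitutive tables were scaled apart and are set side by side without a test.

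Summed over the 34 genes, the level was 1318, 1350 and 688.4 CPM in CTR1 and 2521, 2154 and 773.5 in mCKO. It was 584.8, 455.9 and 557.5 CPM in CTR2 and 1017, 873.5 and 528.1 in iCKO. Both sets of groups overlapped through library 3 of the knockout. The ventricle is a mixture of cells, and in such bulk RNA fewer cells of a type and less RNA per cell cannot be told apart. Markers of macrophages and monocytes moved with the interferon-stimulated genes between groups, with 12 of 14 called higher in iCKO (median log2 fold change 1.66), where 25.2% of all genes were, and 11 of 14 in the blocked fit of mCKO (0.54; 0 of 14 unblocked), where 7.32% were. Their summed level ranged from 418.9 to 555.4 CPM in CTR2, 1125 to 2174 in iCKO, 580.7 to 844.4 in CTR1 and 773.8 to 1371 in mCKO. Library 3 of CTR1, mCKO and iCKO had the highest marker sum of its group and the lowest sum of the 34 genes. Neutrophil markers summed to 5.09 to 14.3 CPM in CTR2 and 28.1 to 70.9 in iCKO. There 3 of 4 tested were called higher, where 25.2% of all genes were, although Ly6g was at 0 in 1 of the iCKO libraries and in 2 of the CTR2 libraries. Dendritic cell markers summed to at most 0.866 CPM in CTR2 and 10.4 in iCKO, with 2 of 2 tested called higher, where 25.2% of all genes were. Most of the iCKO sum was Itgax, at 6.72, 7.64 and 4.85 CPM, beside 0.840, 2.18 and 1.83 for Flt3. The others, Siglech, Xcr1 and Ccr9, had 0.352 CPM or less in every CTR2 and iCKO library and were too low to be tested. T and NK cell markers summed to 8.75, 6.47 and 2.50 CPM in CTR1 and 9.68, 7.08 and 2.90 in mCKO, and so were lowest in library 3 as the 34 genes were. They summed to 1.60 to 1.92 CPM in CTR2, with Cd3e at 0 in all CTR2 libraries. In iCKO they summed to 2.67, 4.23 and 5.67 CPM, and so were highest in library 3, where the 34 genes were lowest. Of these 10 markers 5 were tested in mCKO and 1 in iCKO, and none was called. B cell markers summed to at most 4.12 CPM, and the 1 tested in iCKO was called higher (edgeR adjusted p = 0.0282), where 25.2% of all genes were. Fibroblast markers summed to 902.4 to 1071 CPM in CTR2 and 3092 to 4947 in iCKO. Of these markers 4 of 8 were called higher and 1 lower in iCKO, where 25.2% of all genes were called higher and 19.5% lower. In the blocked fit of mCKO 4 of 8 were called higher, where 7.32% of all genes were. Endothelial markers were called lower for 4 of 8 genes in iCKO, and red blood cell markers for 5 of 5, where 19.5% of all genes were. Sums of the red blood cell markers overlapped, at 256.8 to 1170 CPM in CTR2 and 60.1 to 260.5 in iCKO. Of mural cell markers 2 of 6 were called higher and 2 lower in iCKO, near the 25.2% and 19.5% of all genes. In the blocked fit of mCKO 1 of 6 was called higher, where 7.32% of all genes were. In library 3 of CTR1 and of mCKO, all 8 endothelial and all 8 fibroblast markers lay above the mean of the other libraries of the group. Cardiomyocyte markers were the most abundant of the marker lists named here, at 50440 CPM or more in every library. They fell for 6 of 9 genes in iCKO and 5 of 9 in the blocked fit of mCKO. Of all genes, 19.5% and 6.45% were called lower in those fits. The part of these cell types in the results above was not tested.

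**Figure D4:**
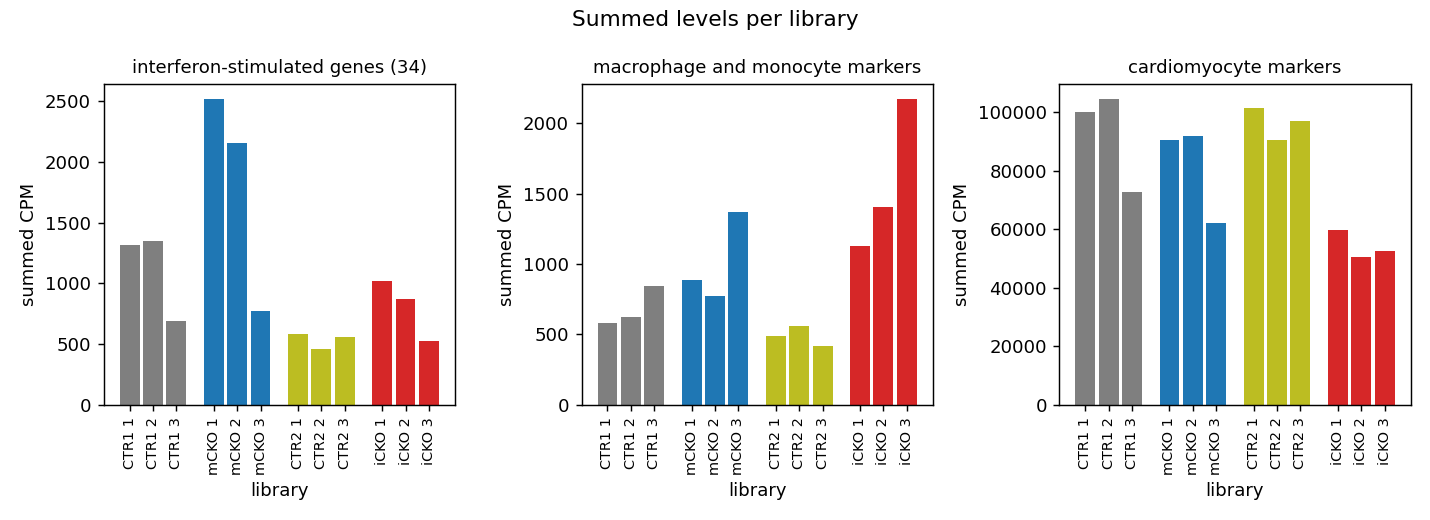
Bars give the summed CPM (vertical axes, from 0) of the 34 interferon-stimulated genes, of 14 macrophage and monocyte markers and of 9 cardiomyocyte markers in each of the 12 libraries (horizontal axes). The 34 genes are lowest in library 3 of CTR1, mCKO and iCKO, where the macrophage markers are highest.

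The interferon ligands themselves were at or near the limit of detection. Ifng had at most 0.350 CPM, in mCKO library 1, and 0 in CTR2, and a count of 0 allows between 0.106 and 0.157 CPM across the libraries, for counting error only. Ifnb1 had 0.0730, 0.106 and 0 CPM in iCKO and 0 in CTR2. None of the ligands passed the filter on low counts, so no change in them was detectable at this depth.

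Of 13 genes of the interferon receptors and their signalling, 5 rose and 1 fell in iCKO, where 25.2% of all genes were called higher and 19.5% lower. In the blocked fit of mCKO 1 rose and 1 fell, close to the 7.32% and 6.45% of all genes that did. Socs3, a feedback inhibitor of cytokine receptors, had 4.05, 10.6 and 6.06 CPM in CTR2 and 71.1, 83.0 and 56.2 in iCKO, a log2 fold change of 3.34 ± 0.34 (edgeR adjusted p = 0.000209). Ptpn6, a phosphatase of blood cells, rose by 2.23 ± 0.17 in iCKO (edgeR adjusted p = 8.43e-05) and by 0.73 ± 0.11 in the blocked fit of mCKO (0.00213). Socs1, the inhibitor of JAK kinases, rose in iCKO by 1.32 ± 0.31 (edgeR adjusted p = 0.00943). Il10rb, the receptor chain shared by interleukin 10 and interferon lambda, fell by 1.32 on the log2 scale in iCKO (edgeR adjusted p = 0.000523) and by 0.28 in the blocked fit of mCKO (0.0136). Both inhibitors and the phosphatase restrain signalling, and the difference between knockouts was called for Socs3, Ptpn6 and Il10rb.

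Of 19 nucleic acid sensing genes outside the 34, 12 rose and 1 fell in iCKO, where 25.2% of all genes were called higher and 19.5% lower, and 5 rose in the blocked fit of mCKO, where 7.32% were called higher. Mavs, the mitochondrial adaptor through which RIG-I and MDA5 signal, was the one that fell. It had 148.8, 141.2 and 135.7 CPM in CTR2 and 55.3, 52.2 and 37.4 in iCKO, and 151.0, 129.7 and 127.7 in CTR1 and 144.0, 151.1 and 128.1 in mCKO. Mavs fell by 1.56 on the log2 scale in iCKO (edgeR adjusted p = 0.000331), and the difference between knockouts was 1.65 ± 0.20 (0.000297). The sensors of the family it serves had no lower call in iCKO, where Dhx58 rose. Sting1, the adaptor of cytosolic DNA sensing, rose by 2.03 ± 0.17 in iCKO (edgeR adjusted p = 0.000109) and by 0.49 ± 0.13 in the blocked fit of mCKO (0.028). Irf5, a factor of myeloid cells, rose by 1.67 ± 0.25 in iCKO (edgeR adjusted p = 0.00107), and the Toll-like receptor adaptor Myd88 by 0.97 ± 0.16 (0.00166). In the blocked fit of mCKO, Irf8, a factor of myeloid cells, rose by 0.57 ± 0.11 (edgeR adjusted p = 0.00738), Irf1 by 0.54 ± 0.11 (0.013) and the duplex RNA receptor Tlr3 by 0.41 ± 0.09 (0.016).

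Of 11 genes that restrain responses to the cell's own nucleic acid, 2 of the 10 tested rose in iCKO, a share below the 25.2% of all genes, Ttc37 by 0.77 ± 0.21 (edgeR adjusted p = 0.0178) and Dnase2a by 0.85 ± 0.29 (0.0437). In the blocked fit of mCKO 1 of the 11 rose and 1 fell, where 7.32% of all genes were called higher and 6.45% lower. Trex1, a DNA exonuclease, fell there by 0.34 on the log2 scale (edgeR adjusted p = 0.0243). Adar, which edits duplex RNA, rose there by 0.24 ± 0.07 (edgeR adjusted p = 0.0491). Among 55 other interferon-stimulated genes tested, 20 rose and 3 fell in iCKO, with a median of 0.30, where 25.2% of all genes were called higher and 19.5% lower. In the blocked fit of mCKO 19 rose and 0 fell, with a median of 0.51, where 7.32% of all genes were called higher. Ifitm3, which blocks virus entry, rose by 1.66 ± 0.14 in iCKO (edgeR adjusted p = 9.47e-05) and by 0.35 ± 0.06 in the blocked fit of mCKO (0.00542). Ifi27l2a (2.32 ± 0.21, edgeR adjusted p = 0.000139) and the DNA sensor Ifi204 (1.92 ± 0.21, 0.000289) rose in iCKO, and Parp10 (0.55 ± 0.07, 0.000898) and Apol9a (1.97 ± 0.32, 0.00336) in the blocked fit of mCKO. In the other direction, Gbp6 had 77.4, 205.1 and 96.1 CPM in CTR2 and 8.87, 6.45 and 2.65 in iCKO. Ifit1bl2 and Ifi205 had iCKO means of 40.6% and 56.6% of CTR2. For these genes every iCKO library lay below every CTR2 library, as for 27% of all genes. None of the genes of these 4 lists was called in the unblocked fit of mCKO, where 2 of 13, 4 of 19, 2 of 11 and 10 of 55 of their tested genes, in the order above, had an unadjusted p below 0.05, beside 1164 of all 13353 genes.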

How the data were processed

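Raw read counts per gene were deposited by the authors in 1 table per model, as whole numbers with no normalization. Trizol extraction and a TruSeq stranded mRNA kit are stated per the labels' protocols. The submitters' processing notes name HISAT2, DESeq and GRCm38, while versions, counting tool, annotation and strand setting were not given in the sources used here. From the deposited counts, CPM values were computed with TMM scaling per table, low genes were removed with filterByExpr (at least 10 counts, total at least 15), and the quasi-likelihood test of edgeR 4.0.16 was run in R 4.3.3, two-sided, with adjustment over all genes. The steps were tested on simulated data. DESeq2 1.42.0, limma-voom (limma 3.58.1), library sizes only, no filter, a replicate block and leaving out libraries were alternatives. No pair of libraries in a group agreed within sampling noise.

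Groups and replicate numbers came from the labels. Same-numbered mCKO and CTR1 libraries deviated together across 13353 genes (r = 0.464, 0.532 and 0.823), each above the limit of 0.1, so the numbers were taken to pair them. That rests on library 3, because mCKO library 1 correlated with CTR1 library 2 (0.553), and mCKO library 2 with CTR1 library 1 (0.529), as well. What a number stands for is not stated in the labels. For iCKO and CTR2 the values were 0.0583, -0.0896 and -0.161, and no pairing was used.

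The genes and lists were chosen with earlier results of these data known. Library values are given for genes called in any comparison, with or without the block, and also for some uncalled genes (Igtp, Irgm1, Gbp3 and Rsad2) chosen after their values were seen. Up to 4 called genes with the smallest adjusted p were eligible from each other list, and those named here are a choice among them. Gbp6, Ifit1bl2 and Ifi205 were named apart from that rule, after their values were seen. Exons came from GENCODE M21 on GRCm38 and promoters from RefSeq on GRCm38.p6. Some genes of these lists are not reported here.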

Additional observations from a re-analysis of the deposited data

Results flagged for a closer look

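Of the 34 genes, only Dhx58 was called in the unblocked edgeR test of the difference between the knockouts, at -1.31 on the log2 scale (adjusted p = 0.0326). Of all genes, 9.88% were called lower and 20.8% in either direction. The models also differ in recombinase and tamoxifen, and the age of the iCKO and CTR2 mice is not given. These cannot be told apart from constitutive against induced deletion. That call was lost on leaving out any 1 of 8 of the 12 libraries and without both libraries numbered 3 of mCKO and CTR1 (adjusted p = 0.0551 to 0.0736). Means were 3.41 CPM in CTR1 and 5.42 in mCKO, beside 1.896 in CTR2 and 7.70 in iCKO. With the replicate block, where 28.1% of all genes were called, the difference was called for Dhx58 at -1.34 (edgeR adjusted p = 0.0258), for Oas1a at -1.09 (0.0368) and for Zbp1 at -1.78 (0.0268). In all 3 genes the induced deletion had the larger log2 fold change. Groups of 3 libraries were not tested for single distant libraries.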

How the results depend on the processing

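In mCKO the edgeR count of the 34 genes called higher, 0 without a block, was 17 with the replicate block, 2 in DESeq2, 25 without both libraries numbered 3 and 20 with the block and library sizes only. It stayed 0 with library sizes only, in limma-voom, without a filter and on leaving out any 1 library. All genes called went from 0 to 1839, 310, 1040 and 2055 in those 4 settings, 4 without a filter, and 0 to 1 on leaving out a library. An alternative chosen after seeing the data, the replicate block without 1 number in both groups, gave 15, 7 and 17 of the 34 and 1508, 1093 and 388 of all genes without numbers 1, 2 and 3. Ddx58, Irf9, Oas1a and Xaf1 were called in each of those 3 fits. In iCKO the count of 17 was 10 to 27 on leaving out a library and 16 to 22 in other settings (16 with the replicate block, which lost Ifi35). The share of all genes called higher was 17.5% to 25.7% on leaving out a library and 20.3% to 33.9% in the other settings. Isg15, Oas1a, Oas3, Ifit3, Bst2, Dhx58, Rtp4, Zbp1 and Eif2ak2 were called in every iCKO setting run. For the difference between knockouts, 1 lower call became 3 with the replicate block, 3 with library sizes only and 3 in DESeq2, and 0 to 4 on leaving out a library. Of all 13871 genes, 1371 were called lower at first, and 1846, 2145 and 1897 in those settings. On leaving out a library 910 to 1615 of all genes were called lower. Without both libraries numbered 3 there was 1 higher call, Irgm1, and 0 lower, and leaving out a library gave 0 to 1 higher. Of all genes, 10.8% and 7.23% to 12.1% were called higher in those fits. Scaling by library sizes only moved the median of all genes from 0.03 to 0.24 in iCKO and from 0.03 to -0.14 in the difference. It moved the share of higher among called genes from 56.4 to 71.5% in iCKO, 52.6 to 34% in the difference and, with the block, 53.2 to 76.9% in mCKO. Depth limits the interferon ligands.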
